A study of Mus musculus with 2 samples.

Results

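Of the 5326 peaks of a Cut&Tag experiment on mouse hippocampus, 466 lay at the ends of noncoding genes alone. Each of these peaks came within 3000 bp of an end of a gene that RefSeq does not class as protein coding, and lay more than 3000 bp from every end of every protein-coding gene. They made up 8.75% of the list (95% exact binomial interval 8.0% to 9.54%). A further 178 peaks near a noncoding gene end were left out because a protein-coding gene end was also within 3000 bp, 963 peaks lay at protein-coding ends, and 3897 lay away from all gene ends. Cut&Tag uses an antibody to bring a transposase to chromatin, so that DNA fragments near the bound protein are cut out and sequenced. The experiment had 1 library with rabbit anti-Smad4 and 1 with IgG control antibody, both from nuclei of mice hippocampus, and the genotype, age, and treatment of the mice used for them were not given in the sources used here. The list of peaks is attached to the IgG record and its name gives no antibody, so no peak is assigned to Smad4 or to IgG. No replicate exists, the read depth of the libraries was not used here, and every interval below covers counting error within 1 list only.

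Long noncoding RNAs (lncRNAs) are transcribed by RNA polymerase II from promoters like those of protein-coding genes, and some act on neighboring genes or on chromatin. MicroRNAs (miRNAs) are cut from hairpin transcripts and repress mRNAs that match their seed. Small nuclear and nucleolar RNAs (snRNAs and snoRNAs) take part in splicing and RNA modification and exist in many near-identical copies. Pseudogenes are disabled copies of genes, and many carry no promoter of their own. Smad4 is the common partner of the receptor-activated Smads in TGF-β and BMP signaling, and Smad complexes bind DNA at short motifs that contain CAGAC or the related GGCGCC.

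The genes at these peaks are shown first by their start sites, because 20 promoter windows of lncRNA genes were overlapped by 1 of the 466 peaks. A window runs from 250 bases before to 50 after a RefSeq start. Six-letter and five-letter motifs are common in any such stretch, so the shares over all windows stand beside the counts below. The sequences are from RefSeq, build GRCm38.p6, and are printed 5′ to 3′ on the strand of the gene. Capitals mark the Smad letters CAGAC, the GC box GGGCGG (bound by Sp1-like factors), and the letters GGCGCC on either strand, except in Gm41603, where they mark a tandem repeat. Motifs are marked over the whole window, whether or not the peak reached them. The windows were chosen for the highest −log10 q among the 20 (Gm41603 and 1700042O10Rik), for GC-rich sequence with GC boxes (Gm26901, 5730405O15Rik, and 9530059O14Rik), and for a named gene (Lncppara).
Gm41603: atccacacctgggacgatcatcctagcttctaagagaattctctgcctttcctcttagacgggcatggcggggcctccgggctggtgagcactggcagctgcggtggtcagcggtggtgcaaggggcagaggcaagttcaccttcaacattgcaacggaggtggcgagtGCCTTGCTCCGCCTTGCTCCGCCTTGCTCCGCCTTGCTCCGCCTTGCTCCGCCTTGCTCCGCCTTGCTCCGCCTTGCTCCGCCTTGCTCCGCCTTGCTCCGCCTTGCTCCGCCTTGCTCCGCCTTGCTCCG
1700042O10Rik: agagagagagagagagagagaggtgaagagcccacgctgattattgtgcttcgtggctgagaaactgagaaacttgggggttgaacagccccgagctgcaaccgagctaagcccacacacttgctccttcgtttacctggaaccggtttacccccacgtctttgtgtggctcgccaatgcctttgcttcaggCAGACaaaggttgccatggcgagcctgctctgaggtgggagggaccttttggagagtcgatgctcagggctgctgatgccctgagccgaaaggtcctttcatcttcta
Gm26901: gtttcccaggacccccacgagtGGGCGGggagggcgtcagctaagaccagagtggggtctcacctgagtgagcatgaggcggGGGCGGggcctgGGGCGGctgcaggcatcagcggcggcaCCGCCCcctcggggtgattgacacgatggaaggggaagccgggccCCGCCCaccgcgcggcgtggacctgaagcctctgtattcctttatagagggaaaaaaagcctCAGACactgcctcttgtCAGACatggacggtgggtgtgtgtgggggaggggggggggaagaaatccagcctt
5730405O15Rik: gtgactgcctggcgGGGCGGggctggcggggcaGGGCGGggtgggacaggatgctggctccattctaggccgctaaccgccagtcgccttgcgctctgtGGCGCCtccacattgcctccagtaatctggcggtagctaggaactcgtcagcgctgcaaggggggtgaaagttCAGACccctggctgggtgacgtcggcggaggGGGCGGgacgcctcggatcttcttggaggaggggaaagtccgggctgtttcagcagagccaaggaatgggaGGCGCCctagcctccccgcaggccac
9530059O14Rik: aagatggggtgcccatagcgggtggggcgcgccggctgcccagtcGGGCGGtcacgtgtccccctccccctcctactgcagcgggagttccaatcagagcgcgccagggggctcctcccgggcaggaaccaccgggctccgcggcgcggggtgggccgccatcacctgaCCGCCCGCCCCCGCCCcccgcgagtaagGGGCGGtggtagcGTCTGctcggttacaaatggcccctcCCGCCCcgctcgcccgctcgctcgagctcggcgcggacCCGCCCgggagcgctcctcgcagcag
Lncppara: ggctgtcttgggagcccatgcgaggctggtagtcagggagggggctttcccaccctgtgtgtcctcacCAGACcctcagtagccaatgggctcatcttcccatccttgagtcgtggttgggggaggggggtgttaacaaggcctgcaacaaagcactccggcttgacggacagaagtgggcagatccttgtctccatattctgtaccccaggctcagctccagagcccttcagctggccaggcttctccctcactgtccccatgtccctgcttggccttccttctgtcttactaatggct
The windows lie at chr17:55932148-55932447 on the minus strand (Gm41603), chr11:11867873-11868172 on the plus strand (1700042O10Rik), chr1:7398047-7398346 on the minus strand (Gm26901), chrX:13041765-13042064 on the plus strand (5730405O15Rik), chr9:122572251-122572550 on the plus strand (9530059O14Rik), and chr15:85703523-85703822 on the plus strand (Lncppara). In Gm41603 the capitals are 131 bases made of a 10-base unit, GCCTTGCTCC, and all 131 lie within the peak. A perfect tandem repeat of at least 100 bases is held by 14 of 11588 lncRNA windows (0.121%).

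Peaks lay at noncoding ends slightly more often than uniform placement along each chromosome would put them there. That placement gives 425.0 peaks (7.98%), so the observed number was 1.10 times as high (interval 1.00 to 1.20). At protein-coding ends 963 peaks (18.1%) stood against 469.7, a ratio of 2.05 (1.93 to 2.17). The classes of noncoding gene went in different directions. LncRNA genes were nearest to 318 peaks against 240.8, a ratio of 1.32 (1.18 to 1.47), and pseudogenes were nearest to 92 against 142.6, a ratio of 0.645 (0.521 to 0.790). MiRNA genes were nearest to 14 peaks against 8.74, a ratio of 1.6 (0.876 to 2.68), and genes of other biotypes to 42 against 32.8, a ratio of 1.28 (0.924 to 1.73), and both intervals included 1. Without genes that carry a Gm or Rik symbol, the lncRNA ratio was 1.05 and the ratio over all noncoding ends was 1.02. Genes with a LOC catalog symbol were kept in that set, and no intervals were computed for these ratios. The placement treats all bases of a chromosome alike. Reads that fall in near-identical copies are lost when only unique mappers are kept, as the authors did, and pseudogenes and small RNA genes hold many such copies. The part of mappability or base composition in these ratios was not tested.

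**Figure D1:**
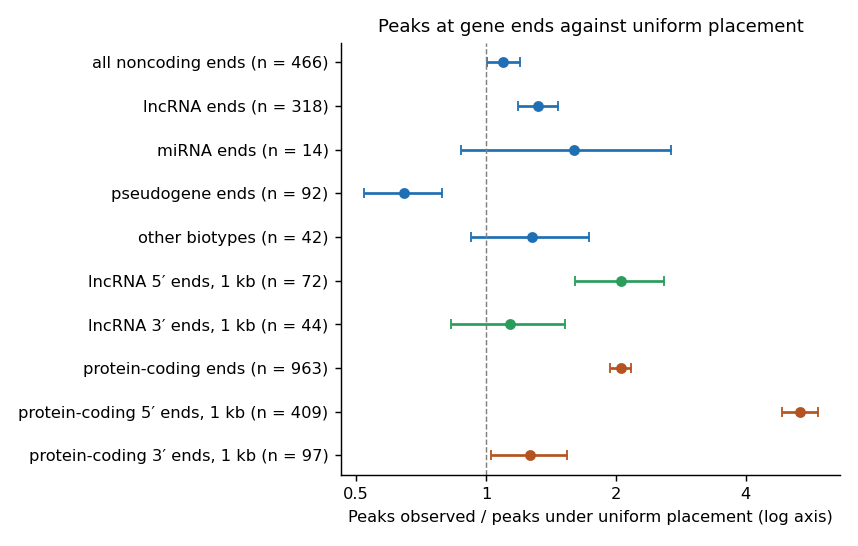
Number of peaks observed divided by the number under uniform placement (log axis) for each class of nearest gene end, with 95% exact binomial intervals as bars. Blue points are the peaks at noncoding ends only, green points their lncRNA genes with known strand within 1 kb, and brown points the peaks at protein-coding ends. Pseudogene ends sit below 1, at 0.645, and lncRNA 5′ ends at 2.05.

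The 466 peaks pointed to 458 different nearest genes, 1.63% of the 28056 noncoding genes on the assembled chromosomes. By class these were 314 of 12727 lncRNA genes (2.47%), 14 of 1228 miRNA genes, 89 of 10609 pseudogenes (0.839%), and 41 of 3492 others. Most are genes that have no name beyond a catalog number. A Gm or Rik symbol was carried by 395 of the 458 (86.2%), and by 79.6% of all noncoding genes. Among the finer biotypes, snRNA genes had 19 peaks against 11, a ratio of 1.73 (1.04 to 2.70), while snoRNA genes had 12 against 11.9, a ratio of 1.01 (0.522 to 1.76). Plain pseudogenes had 83 peaks (ratio 0.623, 0.497 to 0.771), and transcribed pseudogenes 8 (ratio 1.06, 0.457 to 2.09). The remaining members were 3 at tRNA genes, 3 at misc_RNA genes, 2 at immunoglobulin V segments, and 1 each at a C region, a V segment pseudogene, a guide RNA gene, and an rRNA gene. At the edge of the rule, the farthest member lay 2986 bp from Gm18307 and the nearest peak outside lay 3020 bp from Gm52549, both pseudogenes.

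Within the window, the ratio to uniform placement at lncRNA genes was highest close to the gene end. From 0 to 500 bp there were 90 peaks, 1.57 times the uniform number (1.27 to 1.93), and from 500 to 1000 bp there were 61 (1.5, 1.15 to 1.92). From 1000 to 2000 bp the ratio was 1.27 (1.03 to 1.55), and from 2000 to 3000 bp it was 1.06 (0.831 to 1.33). Pseudogenes stood below 1 in every band, and their ratios too were lower beyond 1000 bp. Their 32 peaks from 0 to 500 bp gave 0.755 (0.517 to 1.06), the 21 from 500 to 1000 bp gave 0.918 (0.569 to 1.40), and the 2 outer bands gave 0.495 (0.303 to 0.764) and 0.515 (0.310 to 0.803). Over all 466 peaks the median distance was 1011 bp, 36 peaks covered an end, and 194 overlapped the noncoding gene itself. By class the median distance was 1056 bp (lncRNA), 1356 bp (miRNA), 802 bp (pseudogenes), and 949.5 bp (other biotypes).

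The 2 ends of a lncRNA gene differed. Strand was known for 9533 of the 12727 lncRNA genes (74.9%). Within 1000 bp of a 5′ end, where transcription starts, 72 peaks stood against 35, a ratio of 2.05 (1.61 to 2.58). Within 1000 bp of a 3′ end, 44 stood against 38.7, a ratio of 1.14 (0.828 to 1.53). These intervals did not overlap. Of the 72 peaks, 40 overlapped the gene and 32 lay upstream. For lncRNA genes without strand, the ratio within 1000 bp was 1.44 (1.00 to 2.00). Protein-coding genes showed the same order with a wider gap: 409 peaks within 1000 bp of a 5′ end gave 5.35 (4.86 to 5.87) and 97 within 1000 bp of a 3′ end gave 1.26 (1.03 to 1.54). The first 500 bp held most of this difference, with a ratio of 7.64 (6.88 to 8.46) at protein-coding 5′ ends and 2.00 (1.44 to 2.71) at lncRNA 5′ ends. From 500 to 1000 bp both were close, at 2.05 (1.58 to 2.61) and 2.13 (1.45 to 3.02). Of the 466 peaks, 44 had ends of 2 or more noncoding genes within 3000 bp. RefSeq also lists start sites inside protein-coding genes, and 13 of the 466 peaks came within 3000 bp of such a start, with 1 overlapping its window.

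**Figure D2:**
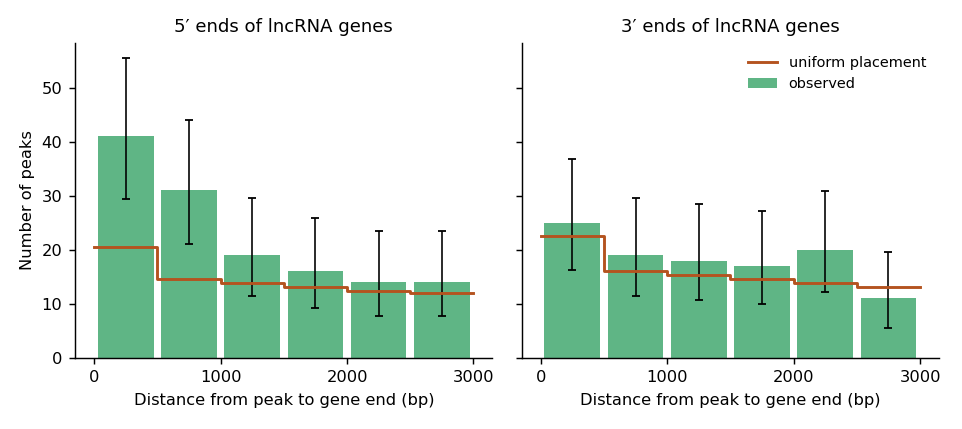
Number of peaks at noncoding ends (bars, with 95% exact binomial intervals) by distance in bp from the nearest 5′ end (left) or 3′ end (right) of a lncRNA gene, in bands of 500 bp. The line is the number under uniform placement, and the first 2 bands at 5′ ends hold 41 and 31 peaks against 20.5 and 14.5.

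RefSeq lncRNA genes rest either on curated transcripts or on models predicted from reads. The 3319 genes with a curated transcript had 45 peaks within 1000 bp, a ratio of 1.93 (1.41 to 2.58). The 9408 genes with model transcripts alone had 106, a ratio of 1.42 (1.16 to 1.71). The intervals of these groups overlapped. Within 3000 bp the ratios were 1.56 (1.26 to 1.91) and 1.24 (1.09 to 1.41).

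Signal at these peaks was low, as it was over the whole list. The pileup, the number of fragments stacked at the summit, was recovered as a whole number for all 5326 peaks from the deposited fold enrichment and −log10 p. Its median was 2 (quartiles 2 and 4) for the 466 peaks and 2 for all peaks, against 3 at protein-coding ends. The median fold enrichment over the local background was 2.88 for the 466 peaks and for all peaks, and 3.74 at protein-coding ends. A q-value of at most 0.01 was met by 180 of the 466 peaks (38.6%), the same as the 38.6% of all peaks that met it, and by 49.9% at protein-coding ends. A fold enrichment of at least 5 was reached by 87 (18.7%, 15.2% to 22.5%), close to the 17.1% of all peaks. A pileup of at least 10 was reached by 21 (4.51%, 2.81% to 6.81%), while 2.74% of all peaks reached it. Seen from the other side, noncoding ends took 14.4% (9.13% to 21.1%) of the 146 peaks this deep, and from 8.09% to 9.04% in each class below it. The 21 peaks include 3 neighboring peaks at the pseudogene Rn18s-rs5 and 2 at the lncRNA gene 2700054A10Rik, both described below. The intervals for this depth count such neighbors as separate, so they may be too narrow.

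**Figure D3:**
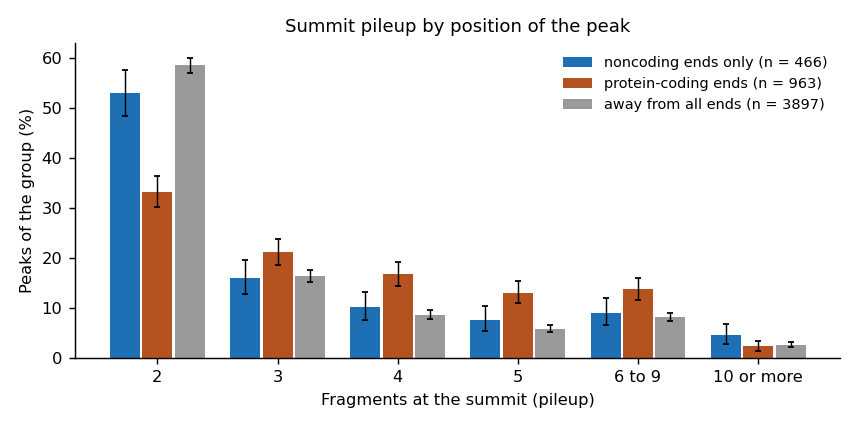
Percent of peaks in each class of summit pileup (fragments at the summit), for peaks at noncoding ends only (blue), at protein-coding ends (brown), and away from all ends (gray), with 95% exact binomial intervals. A pileup of 2 is held by 53.0% of peaks at noncoding ends, 33.2% at protein-coding ends, and 58.5% elsewhere.

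Distance and signal went together only in part. The 90 peaks within 500 bp of a lncRNA end had a median pileup of 3 and 45 of them (50.0%, 39.3% to 60.7%) had a q-value of at most 0.01, the level of protein-coding ends. The 72 peaks beyond 2000 bp had a median of 2 and 28 of them (38.9%, 27.6% to 51.1%) passed. The intervals overlapped. A pileup of at least 10 was held by 7 of the 72 distant peaks and by 2 of the 90 near ones, whichever end of the gene was nearer. By class, 128 of 318 lncRNA peaks (40.3%), 36 of 92 pseudogene peaks (39.1%), 13 of 42 at other biotypes (31%), and 3 of 14 miRNA peaks (21.4%) had a q-value of at most 0.01, against the 38.6% of all peaks.

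The 10 peaks with the highest −log10 q were at 9 genes, 4 lncRNA genes and 5 pseudogenes. At chr9:35305247-35305589, inside the lncRNA gene Gm33838 and 2134 bp from its end, 198 fragments stood over a local background of 5.14, a fold enrichment of 32.4 and the fifth highest −log10 q of the list (226.8). At chr10:130594780-130594989, 1879 bp from Ftl1-ps2, a pseudogene related to ferritin light chain, the pileup was 139 and the fold enrichment 31.7. The nearest protein-coding ends were 29290 and 97401 bp away.

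Rn18s-rs5, a pseudogene related to 18S ribosomal RNA, was the one gene nearest to 3 of the 466 peaks. They filled much of a stretch on chromosome 17, at chr17:39843000-39845638, chr17:39845849-39846328, and chr17:39847861-39848809, with pileups of 172, 99, and 126. The local background there was 29.1 to 31.4 fragments, and the fold enrichments were 5.33, 3.08, and 4.21. The first of them, 2639 bp wide, was the widest peak in the list. The lncRNA gene 2700054A10Rik held the other dense pair, at chr17:13551867-13553086 and chr17:13550712-13551263, with pileups of 100 and 53 over a background of 9.49 and 9.52. The 5 deepest of the 92 pseudogene peaks carried 65.9% of all their fragments at summits, and the 5 deepest of the 318 lncRNA peaks carried 27.1%.

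The other peaks among the 10 highest had pileups between 19 and 35. Those at pseudogenes were 1487 bp from Gm13717, inside the Hedgehog receptor gene Smo (35 fragments, fold enrichment 11.4), 928 bp from Gm18604 (26 fragments, 13.7), and 1234 bp from Gm18013 (21 fragments, 12.9). Those at lncRNA genes lay at 5′ ends. At 4930447F24Rik, inside Bsn, which encodes the presynaptic scaffold Bassoon, the peak at chr9:108133828-108134121 lay 110 bp from the 5′ end with 20 fragments and a fold enrichment of 13.9. At Gm41603 the peak at chr17:55931994-55932290 covered the 5′ end with 19 fragments over a background of 0.486, a fold enrichment of 13.5, and it covered the tandem repeat printed above.

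Among lncRNA genes without Gm or Rik symbols, the 10 with the highest −log10 q had pileups of 2 to 6, in a list whose median was 2. The highest was Prkag2os1, antisense to Prkag2, a subunit gene of the energy sensor AMPK: 6 fragments, fold enrichment 5.92, 1087 bp from its 3′ end. Behind it came LOC105247329 with 5 fragments and LOC115487465 with 4, the latter inside Chst11. LOC115490344, LOC105243553, and Unc45bos had 3 fragments each, and Unc45bos is antisense to Unc45b, a myosin chaperone gene. LOC102632415, Platr10, Ube4bos3, and Parvaos had 2 fragments each. At Ube4bos3 the peak lay 334 bp and at Platr10 692 bp from the 5′ end.

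The 20 lncRNA promoter windows overlapped by a peak were richer in G and C than lncRNA windows at large. Their median was 55.5% (range 38.0% to 75.7%), against 48.3% over all 11588 lncRNA windows, and 8 of 20 (40.0%) reached 60%, against 11.8%. The 74 lncRNA windows that lay within 1000 bp of a peak without overlapping it had a median of 48.2%. The 371 protein-coding windows overlapped by any peak had a median of 62.7%, against 56.3% over all protein-coding windows. CAGAC, on either strand, was in 15 of the 20 windows (75%), in 51.7% of all lncRNA windows, and in 29 of the 74 nearby windows (39.2%). It was in 49.9% of the protein-coding windows overlapped by a peak and in 48.4% of all protein-coding windows. The GC box GGGCGG was in 7 of 20 (35%) against 16.3% of all lncRNA windows, GGCGCC in 1 of 20 (5%) against 5.49%, TATAAA in 2 of 20 (10.0%) against 15.5%, and the E-box CACGTG in 2 of 20 (10.0%) against 5.89%. The palindrome GTCTAGAC was in none of the 20 and in 0.190% of all lncRNA windows. Over the 69 lncRNA windows overlapped by any peak, CAGAC was in 65.2%, GGGCGG in 55.1%, and GGCGCC in 15.9%. No intervals were computed for these motif shares, and 20 windows are few. Motifs were counted over the whole window, not over the part the peak covered. That part ran from 4 bases (Gm1976) to 241 bases (Gm13421), so a counted motif need not lie in the peak. GTCTAGAC holds no CAGAC, and neighboring matches of the other motifs can share end letters.

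**Figure D4:**
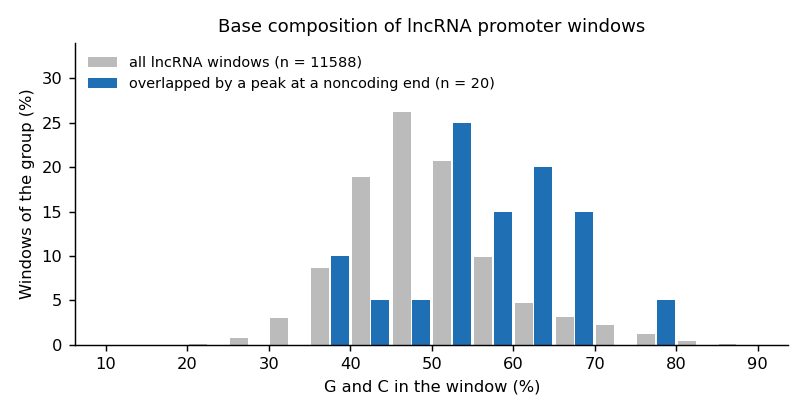
Percent of lncRNA promoter windows (300 bases each) by their share of G and C in percent, for all 11588 windows (gray) and the 20 overlapped by a peak at a noncoding end (blue), in classes of 5 percentage points. Medians are 48.3% and 55.5%.

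The printed windows differ in these letters, counted over the whole window. Gm26901 has 65.7% G and C with 5 GC boxes and 2 CAGAC, and its peak at chr1:7397920-7398200 held 8 fragments (fold enrichment 6.6). 5730405O15Rik has 67.3% with 3 GC boxes, 2 GGCGCC, and 1 CAGAC, and its peak held 5 fragments (5.35). 9530059O14Rik has 75.7%, the highest of the 20, with 7 GC boxes and 1 CAGAC, and its peak held 4 (4.54). In 1700042O10Rik, inside Ddc, which encodes the enzyme that makes dopamine and serotonin from their precursors, the window has 55.0% and 1 CAGAC. The peak there held 9 fragments (8.46), and the window opens with 22 bases of the repeated pair AG, all within the peak. That peak covers only the first 96 bases of the window, and the CAGAC lies beyond them. Perfect tandem repeats of at least 20 bases were in 4 of the 20 windows (20%, 5.73% to 43.7%), against 3.59% of all lncRNA windows. In Gm39546 and Gm36157, the others of the 4, no base of the repeat lay in the peak.

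Of the 14 miRNA genes nearest to a peak, the sequences below are those of the 4 within 500 bp of a peak for which RefSeq lists a mature form, and of Mir7039, which had the highest signal. Capitals mark the seed, bases 2 to 8 of the mature form, which pairs with target mRNAs.
mmu-miR-7039-3p: cCUGUUCUgcccucccuuccag
mmu-miR-7039-5p: aGAGGGAUggagagcaucgcgu
mmu-miR-6346: uAGCAGGUgucugcaaugccaa
mmu-miR-7239-5p: gCCAUCCUgacaaagcccuu
mmu-miR-7239-3p: uGGCUCUGucaggcagguag
mmu-miR-496b: cAACAUGGccaauuccuuucau
mmu-miR-1a-1-5p: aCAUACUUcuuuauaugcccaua
No seed was shared between members. The seed of miR-7039-3p is also that of miR-26a-2-3p, miR-26b-3p, and miR-6932-3p, the seed of miR-496b that of miR-218-1-3p, the seed of miR-7239-3p that of miR-760-3p, and the seed of miR-6346 that of miR-6350. The peak at Mir7039, chr5:144894493-144894877, lay 1855 bp from its 3′ end inside Smurf1, which encodes a ubiquitin ligase that targets Smads. It held 5 fragments, with a fold enrichment of 5.35. At Mir6346 the peak chr1:118954440-118954893 lay 140 bp from the 3′ end, inside the Hedgehog effector gene Gli2, and held 3 fragments. At Mir1a-1, the muscle miRNA gene, the peak chr2:180389145-180389691 lay 21 bp from the 3′ end with 2 fragments. Mir7239 (252 bp) and Mir496b, inside the G protein gene Gnaq (483 bp), also had 2 fragments.

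The other 9 miRNA genes had peaks of 2 to 5 fragments. The peak at Mir669i, inside Sfmbt2, covered its end with 2 fragments. Mir7671 had 5 fragments at 1726 bp, Mir5103 had 3 at 2046 bp, and Mir7578, inside Brd3, had 3 at 1493 bp. Mir6411, Mir8119, Mir6237, Mir1249, and Mir1951 had 2 each, between 1092 and 2793 bp away. Of the 14, 9 peaks (64.3%, 35.1% to 87.2%) lay inside a protein-coding gene, against 102 of 318 (32.1%, 27% to 37.5%) at lncRNA genes and 26 of 92 (28.3%, 19.4% to 38.6%) at pseudogenes. How much of the window of each class lies inside protein-coding genes was not computed. A hairpin inside another gene is often cut from that gene's transcript, so the end of the hairpin gene need not be a promoter.

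In an array of repeated small RNA genes on chromosome 7, pairs of peaks began at matching positions. Snord116 snoRNAs are made from introns of the imprinted transcript Snhg14, in the region lost in Prader-Willi syndrome. RefSeq lists 70 snoRNA genes of a median length of 94 bp there, at chr7:59673461-59904848, of which 17 are named Snord116l, with 67 of the 69 spacings between 2400 and 2700 bp. The array held 4 peaks, and all are members. The peak at Gm23446 (chr7:59767393-59767812, 4 fragments, fold enrichment 4.23) and that at Gm25210 (chr7:59769920-59770118, 4 fragments, 4.19) lay in consecutive repeats, and both began 782 bp after the low-coordinate end of their gene. The peak at Snord116l13 (chr7:59875325-59875606, 7 fragments, 7.01) and that at Snord116l6 (chr7:59885444-59885721, 4 fragments, 4.63) both began 945 bp after it, with summits at 1083 bp in both. In the first pair the summits were at 991 and 843 bp. Each pair thus began at the same base relative to its gene. How many fragments could have come from another copy was not tested. The 4 peaks lay 96774 to 214683 bp from the nearest protein-coding end, that of Snrpn.

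**Figure D5:**
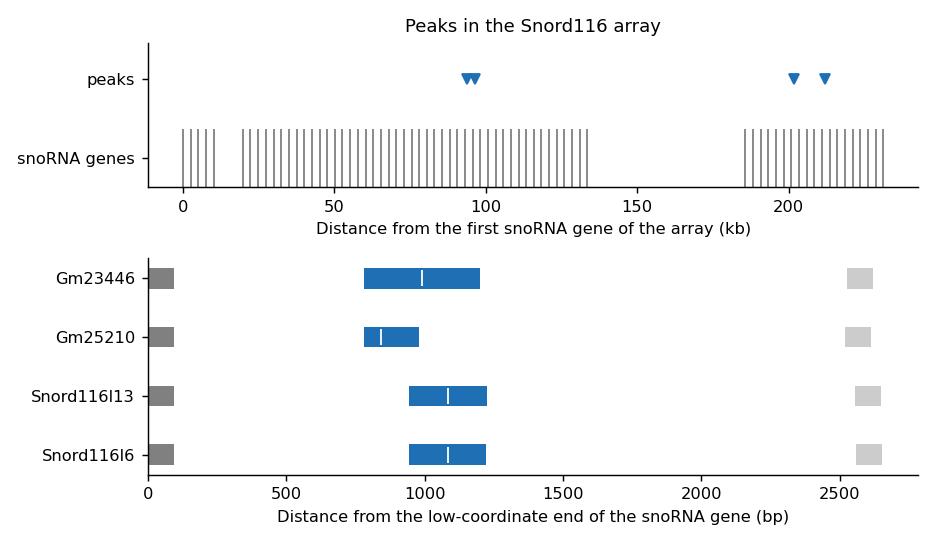
Upper panel, the 70 snoRNA genes of the Snord116 array (lines) and the 4 peaks (triangles), by distance in kb from the first gene. Lower panel, each peak (blue, summit in white) by distance in bp from the low-coordinate end of its snoRNA gene (dark gray), with the next gene of the array in light gray. The upper pair of peaks begins at 782 bp and the lower pair at 945 bp.

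Other small RNA genes had scattered peaks. A pair of tRNA genes on chromosome 3, n-TGtcc7 for glycine and n-TEctc13 for glutamate, had peaks of 5 fragments (chr3:96500771-96501012, reaching the first bases of the gene) and 4 fragments (chr3:96501585-96501868, 67 bp away). The peak at n-TQttg6 on chromosome 11 overlapped that tRNA gene with 3 fragments, and the peak 475 bp from the 5S rRNA gene n-R5s144 held 2. The highest among biotypes other than lncRNA, miRNA, and pseudogene was at chr12:113424344-113425155, 1614 bp from Ighm, the immunoglobulin mu constant region, with 20 fragments and a fold enrichment of 10.9. It was followed by the snRNA gene Gm23472 (11 fragments, 2713 bp), the snoRNA gene Gm25216 (10 fragments, 193 bp), Snord116l13, and the snoRNA gene Gm25613 (7 fragments, 755 bp, inside Slc16a10). Of the 19 snRNA peaks, 13 had a pileup of 2, and 3 overlapped an end of the gene, with 2 or 3 fragments.

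Few of the peaks lay near each other. Only 21 of the 466 were within 10000 bp of another, in 10 groups, of which the Rn18s-rs5 stretch with 3 was the largest. Genes nearest to 2 peaks were 2700054A10Rik, Gm24208, Gm30986, Gm33831, Gm8149, and Mid1-ps1. Chromosome Y had 3 members among its 14 peaks (21.4%, 4.66% to 50.8%), all within a short stretch, 2 of them at Mid1-ps1, a pseudogene of Mid1. Uniform placement gives 1.33% on chromosome Y, a ratio of 16.2 (3.51 to 38.3) that counts the 3 neighboring peaks as separate. On the other chromosomes the share ran from 4.83% of 207 peaks (chromosome 14, 2.34% to 8.7%) to 13.4% of 217 (chromosome 13, 9.14% to 18.6%). Uniform placement gives 8.59% on chromosome 14 and 9.44% on chromosome 13.

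Of the 466 peaks, 149 (32.0%, 27.8% to 36.4%) lay inside a protein-coding gene, deep in its body by the rule. The share was 52.4% (50.8% to 54.0%) for the peaks away from all ends and 50.0% for all peaks. The share under uniform placement within the windows of the rule was not computed. The difference may therefore reflect only where noncoding gene ends are annotated. The median distance to the nearest protein-coding end was 31143 bp over all 466. Gnaq, Rab11fip4, and Uvrag were among the hosts with 2 members each. Others with 1 were genes of synapses and neuronal excitability, such as Bsn, Dlgap1, Cacna1d, and Kcnip4. Smo, Gli2, and Smurf1 also held 1 each. These hosts were named after their values were seen.

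Few noncoding genes with known roles in brain or in Smad signaling had such peaks, as few noncoding genes of any kind did. As background, 339 of 12727 lncRNA genes (2.66%) and 21 of 1228 miRNA genes (1.71%) had a member within 3000 bp of an end. Over all classes 511 of 28056 noncoding genes (1.82%) did, so a short list with none is not far from these shares. None of the 52 genes of the imprinted Dlk1-Dio3 cluster did, which include Meg3, Rian, and Mirg and lie in 1 stretch of chromosome 12, so they do not count as 52 independent genes. Mir431, the miRNA gene this study is about, lies there at chr12:109590447-109590537, and the nearest peak of any kind was 199198 bp away. None of 46 miRNA genes linked to Smad signaling had a peak of any kind at an end, as 2.93% of all miRNA genes did, and some of the 46 lie in shared clusters. So few genes cannot show a difference from that share. The nearest were Mir141 and Mir200c, 5620 and 6028 bp from a peak that covered the end of Emg1, and Mir21a was 99490 bp from its nearest peak. None of 16 imprinted lncRNA genes had a member at an end, although 4 peaks of the Snord116 array lie inside Snhg14.

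Of 44 brain lncRNA genes, none had a member at an end, against 2.66% of all lncRNA genes. A peak lay inside 6 of them (Pantr1, Six3os1, Mir9-3hg, Dleu2, Sox1ot, and Snhg14), the nearest to an end being 3732 bp from that of Pantr1. The share of all lncRNA genes with a peak inside was not counted, so this number has no background here. Snhg8 had a peak 2 bp away with 6 fragments (fold enrichment 5.63), but a protein-coding end, that of Prss12, lay 1736 bp from it. Neat1 and Malat1, abundant nuclear lncRNAs, were 8365 and 13447 bp from the same peak of 6 fragments. Of 80 brain miRNA genes, 1 (1.25%, against 1.71% of all miRNA genes) had a member. This was Mirlet7c-2, a let-7 gene, with the member 2880 bp away and nearer to another gene. That peak, chr15:85703286-85703723, held 3 fragments (fold enrichment 3.44) and overlapped the promoter window of the lncRNA gene Lncppara printed above, and Mirlet7b was 3596 bp from it. Of neuronal miRNA families, Mir132 was 41273 bp from its nearest peak, the 3 Mir124a genes 14055 to 243817 bp, and the 3 Mir9 genes 15269 to 380551 bp. Of 28 genes for spliceosomal and other abundant small RNAs, none had a member, while Rpph1, Vaultrc5, and Rn4.5s had peaks of 5, 3, and 10 fragments that also lay within 3000 bp of a protein-coding end. A peak of any kind at an end was thus found for 10.7% of the 28, against 2.53% of all noncoding genes. That share rests on 3 genes. Rn7sk, for the 7SK RNA that restrains transcription elongation, was 13972 bp from its nearest peak.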

How the data were processed

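Cut&Tag was performed on mouse hippocampal nuclei with 1 anti-Smad4 and 1 IgG library (150 bp paired-end reads). The authors used MACS2 on unique mappers, with a limit of 0.05, and the submitters' processing notes also name BWA, HOMER, and mm10, which is GRCm38. Handling of duplicates and control was not given in the sources used here. The deposited values of each peak are its position, score, fold enrichment (a ratio to background), and the −log10 of its p-value and q-value.

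Pileups were recovered from the deposited fold enrichment, read as (pileup + 1) / (background + 1), and −log10 p, read as a Poisson tail. Gene ends came from RefSeq GRCm38.p6 (49943 genes, 21887 protein coding), and strand from its promoter and miRNA tables. Uniform expectations are exact: for each peak, the share of start positions on its chromosome that meet the rule, with assembly gaps included. Intervals are 95% Clopper-Pearson. No test between groups was run, since peaks are not replicates. Scripts were tested on simulated data.

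Members, lists, and motifs were chosen with earlier results of these data known. Genes named are those nearest to the 10 peaks highest in −log10 q, miRNA genes nearest to a peak, listed genes with a peak, genes with 3 or more peaks, the 5 highest pseudogenes and 5 highest other biotypes, and the 10 highest lncRNA genes without Gm or Rik symbols. Hosts, array genes, tRNA genes, near misses of lists, tandem repeats, and curated against model transcripts were chosen after values were seen. One item is not reported here. Alternatives were stricter q-values, pileup, window, summits, and gene sets. Python 3.11.15, NumPy 2.4.6, pandas 2.3.3, SciPy 1.17.1, and matplotlib 3.10.9 were used.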

Additional observations from a re-analysis of the deposited data

How the results depend on the processing

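No paired analysis was possible because neither antibody had a second library, and for the same reason no replicate could be left out. Where the main interval of a ratio lay on 1 side of 1, its point value did not cross 1 under any alternative run. Intervals under the alternatives were computed only for the lncRNA 5′ and 3′ ends. For the other ratios, some of them close to 1, whether an interval would include 1 was not assessed. With peaks of q at most 0.01 kept, 180 members at 175 genes remained. With q at most 0.001 there were 118 members at 114 genes, 9.94% of the peaks kept, with ratios of 1.24 for all noncoding ends, 1.59 for lncRNA, 0.514 for miRNA, 2.80 (1.76 to 4.22) for lncRNA 5′ ends within 1000 bp, and 1.15 (0.554 to 2.11) for lncRNA 3′ ends. With a pileup of at least 3 there were 219 members at 214 genes, with a median fold enrichment of 4.54. With a window of 1000 bp there were 256 members at 254 genes (4.81% of peaks), 109 of them with q at most 0.01, at a median distance of 338.5 bp, with ratios of 1.31 for all and 1.6 for lncRNA. Without Gm and Rik genes the members were 1.28% of peaks, and the ratio was 1.02 for all noncoding ends, 1.05 for lncRNA, 0.805 for pseudogenes, 2.84 for lncRNA 5′ ends (5 peaks, 0.922 to 6.62), and 0.463 for 3′ ends (1 peak). The comparison of lncRNA ends within 1000 bp was added after the data were seen. Among peaks with a pileup of 2 its ratios were 1.66 (1.13 to 2.36) at 5′ ends and 1.27 (0.828 to 1.85) at 3′ ends. The intervals of the 2 ends overlapped here, with q at most 0.001, and without Gm and Rik genes. Leaving out each chromosome gave ratios for all noncoding ends of 1.08 to 1.12. The other values moved less than their intervals or by less than 1.5 times. Most peaks rest on 2 fragments, so 1 fragment more or less decides whether they are listed.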
